A study of Sus scrofa with 6 samples.

Results

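Candidate plasmacytoid dendritic cells (pDC) and candidate type 2 conventional dendritic cells (cDC2) from the blood of adult pigs were compared on custom 1-colour Agilent porcine arrays. The arrays were chosen by their titles, 2 named for plasmacytoid DC and 2 named for DC without XCR1, which make up 4 of the 6 arrays analysed here. The other 2 arrays hold type 1 conventional dendritic cells (cDC1), labelled as DC with XCR1, and serve to place a level. They also entered the fit and the filter on dim probes. The labels name no treatment, and all cells were sorted from peripheral blood mononuclear cells. The pDC candidates were gated as CD4+ cells of intermediate CD172A without CD3 and CD14. The cDC2 candidates were gated as MHC class II+ cells of large forward scatter without immunoglobulin chains, CD4, CD14 or CADM1, and with high or intermediate CD172A. The study's text sets cells of intermediate CD172A aside from its cDC2 candidates, while the labels of these arrays allow either level. Here pDC and cDC2 name the sorted candidates and not a proven identity. On the arrays called cDC2 the markers went partly against that name. CD14, which marks monocytes, was well above its level on the cDC1 arrays, and FLT3 was below both other subsets. CSF1R was also well above its cDC1 level, but the paper lists it among genes higher in cDC2 than in pDC and cDC1. It therefore does not go against the name. Where a sort gave under 50 ng of RNA, that of several pigs was mixed, and the labels do not say for which arrays. Nothing states that the 2 arrays of a subset came from separate animals, so the p-values measure only a spread between arrays. The fit assumed a single spread per probe for all subsets, cDC1 included, also where the arrays of one subset lay farther apart.

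pDC are the dendritic cells known for rapid release of type I interferon after endosomal Toll-like receptors meet viral nucleic acid, and the E protein TCF4 is the transcription factor that sets and keeps their identity. cDC2 are antigen presenting cells that prime CD4+ T cells, carry the inhibitory receptor SIRPA (CD172A) and share several receptors with monocytes. FLT3, the receptor of FLT3 ligand, is needed for the development of both. The arrays name few genes: 27 probes of 23 genes carry a symbol, and the other probes are counted without a name. Of the lists of lineage, receptor, cytokine and contaminant genes used for this comparison, those for antigen presentation, B cell receptor-like signalling, B cells, and T and NK cells have no probe with a symbol, so these were not read.

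Each array held 42018 gene spots, of which 59.4% to 62.8% were well above background on the 4 arrays, and no spot was saturated. A level is log2 of the background-corrected signal minus the 75th percentile of that array, so 0 marks the brightness that 75 percent of its gene spots stay below. Levels of different probes are not compared, since a probe has its own brightness per copy of RNA. Across all probes the levels correlated at 0.975 between the pDC arrays, at 0.987 between the cDC2 arrays, and at 0.924 to 0.929 between a pDC and a cDC2 array. In bulk samples, fewer cells of a type and less RNA per cell cannot be told apart. A single slide held an array of each subset, pDC replicate 1 and cDC2 replicate 1, and the difference within it is given beside the genes called, apart from XCR1.

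The subsets differed on a large part of the array. Of 26371 probes tested with limma, 8617 (32.7%) passed an adjusted p of 0.05, with 4154 (15.8%) higher in pDC and 4463 (16.9%) higher in cDC2, and 11635 had an unadjusted p under 0.05. Over all tested probes the median size of the difference was 0.67 on the log2 scale, and the median SD was 0.33 between the pDC arrays and 0.17 between the cDC2 arrays. Among the called probes the median difference was 1.83 on the log2 scale for those higher in pDC and 1.98 for those higher in cDC2. Differences of at least 16-fold were called for 464 probes higher in pDC and 695 higher in cDC2, and of at least 64-fold for 153 and 132. Without cDC2 replicate 1 the count was 4473 and without cDC2 replicate 2 it was 4235. With the scan day as a block it was 2856. Both pDC arrays, cDC2 replicate 1 and cDC1 replicate 1 were scanned on the same day, and cDC2 replicate 2 and cDC1 replicate 2 each on a day of its own. The scan day block therefore takes up these last arrays whole. Its differences are those found without cDC2 replicate 2, with fewer degrees of freedom left. It is thus no separate check on the scan day, here or for the genes below.

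**Figure D1:**
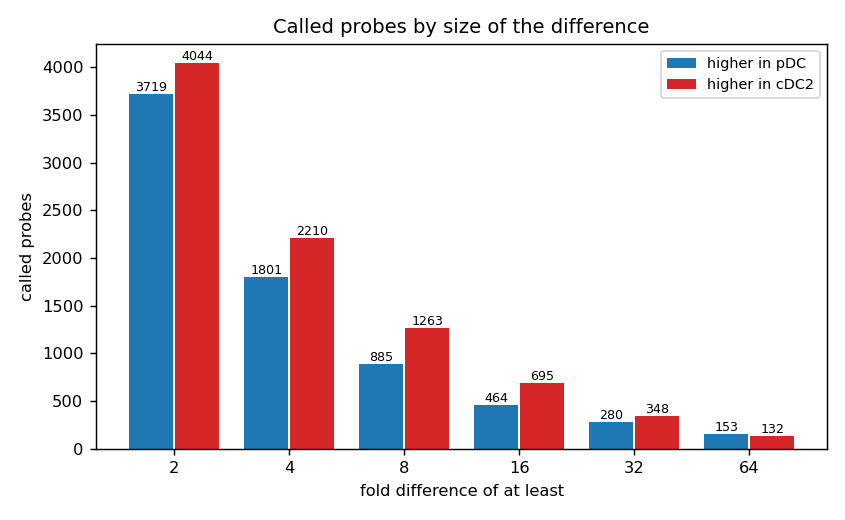
Number of probes called by limma (vertical axis) whose mean difference reached at least the fold on the horizontal axis, in blue for higher in pDC and in red for higher in cDC2. At 2-fold the counts are 3719 and 4044, and from 4-fold to 32-fold more probes were higher in cDC2, while at 64-fold 153 were higher in pDC and 132 in cDC2.

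A stricter view asks that the lowest array of one subset exceed the highest array of the other by at least 2-fold. In that way 2920 of the 26371 tested probes (11.1%) stood higher in pDC and 3274 (12.4%) higher in cDC2. With normexp background correction these counts were 1472 and 1894. Among probes well above background on all 4 arrays they were 2042 and 2171. Within the shared slide, 5034 of the tested probes were at least 2-fold higher on the pDC array and 5215 on the cDC2 array. The means of both arrays gave 4506 and 4762. Of all 41901 probes, 767 were well above background on both pDC arrays and on neither cDC2 array. On both cDC2 arrays and on neither pDC array 1031 were so. With the 95th percentile of the negative control spots as the limit, the counts were 717 and 798. For the 767 and 1031 probes a bound was set. It is the mean of the brighter subset over the higher of the probe's own signal and the lowest signal well above background. The bound reached at least 16-fold for 95 of the probes seen in pDC and for 85 of those seen in cDC2.

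Among the 14 genes whose probe names mark them as positive, 11 were tested, and 9 of these were measured above background on each of the 4 arrays. Those 9 passed the threshold, where 32.7% of all tested probes did, with 4 higher in pDC (TCF4, TNF, FLT3 and UNC93B1) and 5 higher in cDC2 (CSF1R, CD14, SIRPA, BATF3 and ID2). The median size of their difference was 3.05 on the log2 scale against 0.67 over all tested probes. These genes were picked for the array design, so their share does not describe the other genes. CADM1, at background on a pDC array, and XCR1, which entered the test only through the cDC1 arrays, are described with the cDC1 markers.

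**Figure D2:**
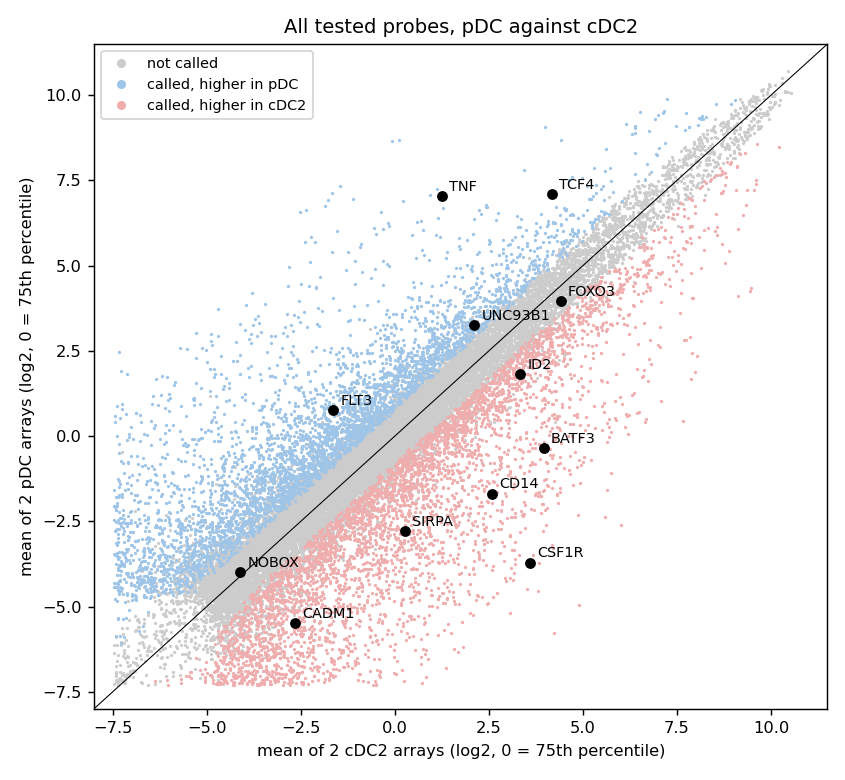
Each point is a tested probe, with its mean level on the 2 cDC2 arrays (horizontal) and on the 2 pDC arrays (vertical), both log2 relative to the 75th percentile. Blue and red points were called higher in pDC and in cDC2, and the black points name tested genes. CSF1R lies farthest to the cDC2 side and TNF farthest to the pDC side of the named genes.

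Of the transcription factors, TCF4 was higher in pDC while BATF3 and ID2 were higher in cDC2. TCF4 stood at 7.21 and 6.96 on the pDC arrays and at 4.23 and 4.14 on the cDC2 arrays. Every pDC array lay above both cDC2 arrays, and the cDC1 arrays, at 4.06 and 4.46, lay with the cDC2 arrays. The log2 difference of TCF4 was 2.90 (SE 0.26, n = 2 against 2, limma adjusted p = 0.00062), a fold of 7.48, and 2.98 within the shared slide. It was between 2.78 and 3.03 in each alternative run.

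The first 30 bases of the TCF4 probe and of the ID2 probe are shown to fix which stretch of the transcript was read, in the orientation given in the files.
TCF4: aatcgcagacgcaagaggtttcagcattcc
ID2: cctgctttatttcagaggaccagtgctttg

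ID2, an inhibitor that binds E proteins such as TCF4 and keeps them from DNA, moved the other way. It stood at 1.63 and 2.01 on the pDC arrays and at 3.35 and 3.33 on the cDC2 arrays, with no overlap, and at 6.33 and 5.97 on the cDC1 arrays. It was 2.86-fold lower in pDC (log2 difference -1.52, SE 0.26, limma adjusted p = 0.0072), and -1.71 within the shared slide. The call was lost without cDC2 replicate 1 (limma adjusted p = 0.055), without cDC2 replicate 2 (limma adjusted p = 0.056) and with the scan day as a block (limma adjusted p = 0.14), while the difference itself remained between -1.70 and -1.33.

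BATF3, a basic leucine zipper factor needed for the development of cDC1, was the most different of the named factors. It stood at -1.11 and 0.41 on the pDC arrays, at 4.23 and 3.68 on the cDC2 arrays, and at 7.81 and 7.77 on the cDC1 arrays. The 3 subsets did not overlap, with pDC lowest and cDC2 between the others. It was 19.8-fold lower in pDC than in cDC2 (log2 difference -4.31, SE 0.51, limma adjusted p = 0.0017), with -5.34 within the shared slide. The pDC arrays were 2.85-fold apart, and the fold was 11.7 when pDC replicate 1 was left out and 33.4 when pDC replicate 2 was. FOXO3, a forkhead factor of stress and survival whose probe names mark it as negative, was close in both subsets. Its brighter probe stood at 3.81 and 4.09 in pDC and at 4.25 and 4.56 in cDC2, a log2 difference of -0.46 (SE 0.26, limma adjusted p = 0.23), and its other probe gave -0.37 (limma adjusted p = 0.26).

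Of the 2 growth factor receptors, FLT3 was higher in pDC and CSF1R higher in cDC2. CSF1R, the receptor of macrophage colony-stimulating factor, marks monocytes and macrophages and some dendritic cells. It stood at -2.95 and -4.48 on the pDC arrays and at 3.68 and 3.48 on the cDC2 arrays. The cDC1 arrays, at -3.32 and -3.25, lay with the pDC arrays. The fold was 157 (log2 difference -7.30, SE 0.49, limma adjusted p = 0.00027), the largest of the named genes in these values, and -6.63 on the log2 scale within the shared slide. Leaving out pDC replicate 1 gave 267-fold, and leaving out pDC replicate 2 gave 92.7-fold. With normexp background correction the fold was 37.6, below the 48.7 of TNF, and in the deposited log2 values it was 85.9.

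FLT3 stood at 0.86 and 0.64 on the pDC arrays and at -1.50 and -1.76 on the cDC2 arrays, while the cDC1 arrays lay at 0.90 and 0.73. It was 5.22-fold higher in pDC (log2 difference 2.38, SE 0.24, limma adjusted p = 0.0010) and 2.36 on the log2 scale within the shared slide. With normexp the fold was 3.44. A further probe on the opposite strand of the same stretch is printed with it, and the bases in capitals are those that both hold, as reverse complements of each other.
FLT3: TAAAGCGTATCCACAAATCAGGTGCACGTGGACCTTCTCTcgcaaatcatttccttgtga
opposite strand: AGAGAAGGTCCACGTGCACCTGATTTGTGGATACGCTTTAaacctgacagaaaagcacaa
The opposite-strand probe shares 40 bases and stood at -1.38 and -2.61 on the pDC arrays and at -2.78 and -1.92 on the cDC2 arrays. These arrays overlap, and the difference was 0.35 on the log2 scale (SE 0.48, limma adjusted p = 0.61).

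Of the myeloid surface molecules, CD14 and SIRPA were both higher in cDC2. CD14 is the co-receptor for lipopolysaccharide and the classical monocyte marker, and both subsets had been gated as negative for its protein. It stood at -0.73 and -2.66 on the pDC arrays and at 1.90 and 3.26 on the cDC2 arrays, and was well above background on every one of them. The cDC1 arrays were at -2.47 and -2.03. CD14 was 19.4-fold lower in pDC (log2 difference -4.28, SE 0.72, limma adjusted p = 0.0062), and -2.64 within the shared slide. The fold ran from 9.96 without pDC replicate 2 to 37.8 without pDC replicate 1, and the call was lost with the scan day as a block (limma adjusted p = 0.057).

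CD14 and CSF1R are the 2 of 5 monocyte markers with a symbol, and on pDC replicate 1 both were above pDC replicate 2, 3.79-fold for CD14 and 2.88-fold for CSF1R. Between the cDC2 arrays CD14 differed 2.56-fold and CSF1R 1.15-fold. Arrays of monocytes were not used here, and the part of monocytes in these differences was not tested.

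SIRPA encodes CD172A, on which the gates were drawn, and the part of the sort in its difference was not tested. The probe stood at -3.21 and -2.35 on the pDC arrays and at 0.39 and 0.13 on the cDC2 arrays, while the cDC1 arrays, at -6.00 and -5.68, were not above background. The fold was 8.27 (log2 difference -3.05, SE 0.35, limma adjusted p = 0.0015), -3.61 on the log2 scale within the shared slide and 3.54-fold with normexp. A second probe shares 33 bases with it, printed in capitals.
SIRPA: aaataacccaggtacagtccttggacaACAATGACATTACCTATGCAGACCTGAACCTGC
overlapping probe: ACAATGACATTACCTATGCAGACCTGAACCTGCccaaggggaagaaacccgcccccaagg
The overlapping probe stood at 1.70 and 2.47 on the pDC arrays and at 2.76 and 2.81 on the cDC2 arrays. Its difference had the same direction but was -0.70 on the log2 scale (SE 0.31, limma adjusted p = 0.13), so the 2 probes gave unequal sizes and a different call.

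The CSF1R and CD14 probes are printed because they carry the largest differences toward cDC2 among the receptors. Both were placed on the array again under another name with the same 60 bases.
CSF1R: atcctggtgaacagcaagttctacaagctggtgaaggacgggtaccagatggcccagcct
CD14: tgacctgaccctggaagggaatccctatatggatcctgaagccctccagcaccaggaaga

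Of the 3 cytokines with a symbol, TNF was tested and was far higher in pDC. TNF, the inflammatory cytokine, stood at 5.97 and 8.09 on the pDC arrays and at 1.10 and 1.41 on the cDC2 arrays. Both pDC arrays lay above both cDC2 arrays although they were 4.34-fold apart from each other, and the cDC1 arrays stood at -0.89 and 0.06. The fold was 54.8 (log2 difference 5.78, SE 0.70, limma adjusted p = 0.0019), and 4.87 on the log2 scale within the shared slide. Leaving out pDC replicate 1 raised it to 114-fold, and leaving out pDC replicate 2 lowered it to 26.3-fold. IL12A and IL12B, the subunits of interleukin 12, were not well above background on any of the 4 arrays, so no fold is given. The first 30 bases of the TNF probe follow.
TNF: tctaaataatgctgatttggtgactaactt

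UNC93B1, which carries the nucleic acid sensing Toll-like receptors to endosomes, was the one measured gene of the endosomal sensing list. It stood at 3.13 and 3.35 on the pDC arrays and at 2.31 and 1.92 on the cDC2 arrays, with the cDC1 arrays lower at 1.13 and 1.10. It was 2.19-fold higher in pDC (log2 difference 1.13, SE 0.25, limma adjusted p = 0.018), and 0.82 within the shared slide. The direction was kept in every alternative run. The call was lost without cDC2 replicate 1 (limma adjusted p = 0.055), without cDC2 replicate 2 (limma adjusted p = 0.13), with no filter on dim probes (limma adjusted p = 0.065) and with the scan day as a block (limma adjusted p = 0.35).

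**Figure D3:**
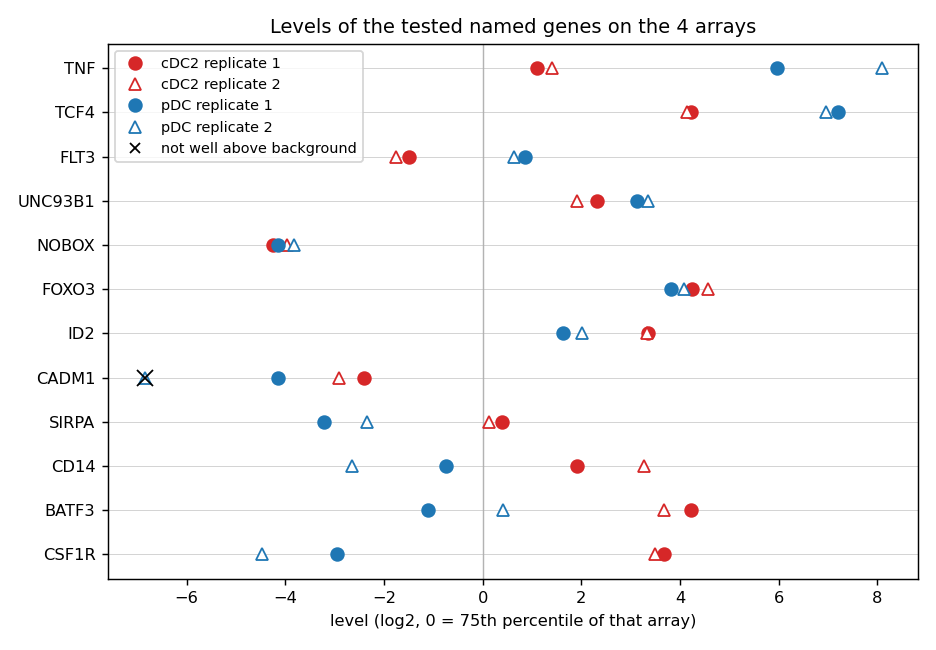
Level of each tested named gene (vertical axis, brightest probe) on the 2 pDC arrays (blue) and the 2 cDC2 arrays (red), log2 relative to the 75th percentile of the array. Filled circles are replicate 1, open triangles replicate 2, and a cross marks an array not well above background. XCR1 is left out, as it was not above background on these arrays. The subsets overlap for NOBOX alone of the genes shown, and the pDC arrays lie farthest apart for CADM1, at -4.14 and -6.85.

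Of the cDC1 surface molecules, XCR1 was at background in both subsets while CADM1 had signal in cDC2. XCR1, the chemokine receptor that defines cDC1, stood at -5.68 and -5.49 on the pDC arrays and at -6.58 and -6.78 on the cDC2 arrays, against 0.47 and 0.54 on the cDC1 arrays. It was not well above background on any of the 4 arrays, so no fold is given, although limma called it higher in pDC (limma adjusted p = 0.014). Its 2 copies of the same 60 bases gave limma adjusted p = 0.094 and limma adjusted p = 0.30. CLEC9A, a receptor for dead cells on cDC1, was above background on pDC replicate 1 only and was not tested. Its probe was not above background on the cDC1 arrays either, at -6.17 and -5.96, so it says nothing of cDC1 here.

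CADM1, an adhesion molecule on which cDC1 were gated in and cDC2 out, stood at -4.14 and -6.85 on the pDC arrays and at -2.41 and -2.91 on the cDC2 arrays. The cDC1 arrays were at 0.91 and 0.93. The array of pDC replicate 2 was not well above background for this probe. The log2 difference was -2.83 (SE 0.81, limma adjusted p = 0.041), and -1.73 within the shared slide. That difference averages in the background value of pDC replicate 2. Against pDC replicate 1 alone the cDC2 mean was 2.80-fold higher, and against pDC replicate 2 alone at least 5.01-fold. With normexp the difference was -0.52 and no longer called (limma adjusted p = 0.058), and without either cDC2 array the call was lost as well (limma adjusted p = 0.18 and limma adjusted p = 0.13). So it was with only the 4 arrays (limma adjusted p = 0.057), with no filter on dim probes (limma adjusted p = 0.090) and with the scan day as a block (limma adjusted p = 0.16). The dimmer CADM1 probe was above background on neither pDC array and on 1 of the 2 cDC2 arrays, and it entered the test only through the cDC1 arrays, so no difference is given.

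The probes whose names mark them as negative gave mostly no signal. Of their 9 genes, 6 were not well above background on any of the 4 arrays, and those with signal were FOXO3, NOBOX and STRA8. NOBOX, an oocyte factor, stood at -4.15 and -3.82 on the pDC arrays and at -4.25 and -3.97 on the cDC2 arrays, and its difference was 0.12 on the log2 scale (SE 0.26, limma adjusted p = 0.75). Neither of the 2 tested negative genes, FOXO3 and NOBOX, was called, and none had an unadjusted p under 0.05 in limma. STRA8, a meiosis gene, was above background on pDC replicate 2 alone, at -4.15.

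Copies of the same sequence gave a measure of the error within an array. Of the 16 further probes that hold the same 60 bases as a named probe, 10 were measured on all 4 arrays, for 8 genes. Their pDC minus cDC2 difference departed from that of the named probe by a median of 0.041 and at most 0.16 on the log2 scale. The spots of a named probe, 4 or 5 on each array, had a median SD of 0.053. These errors are far below the spread between the pDC arrays, so copies and spots are not replicates of a subset.

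**Figure D4:**
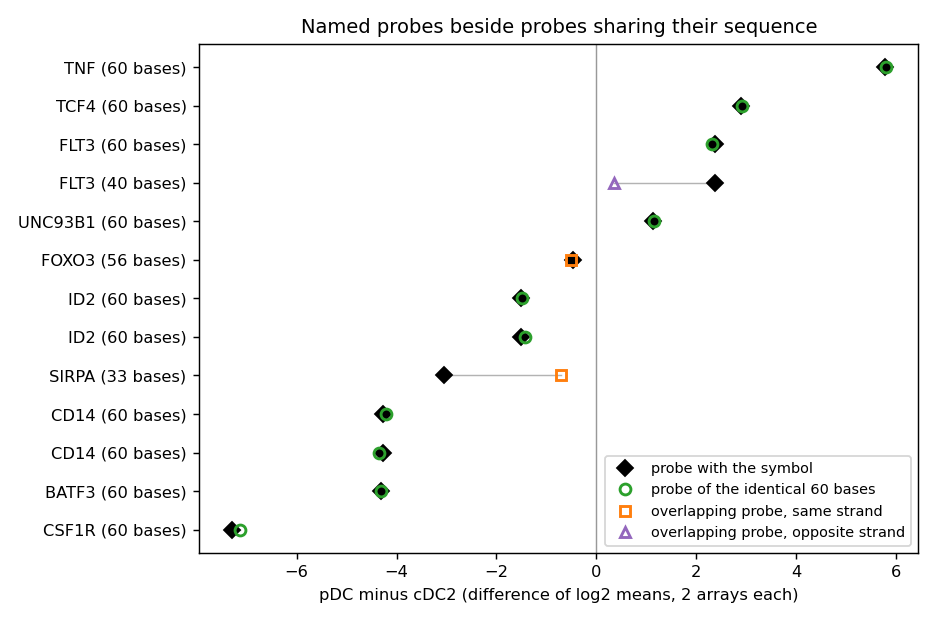
Difference of pDC minus cDC2 (log2, 2 arrays each) for named probes (black diamonds) beside probes that share their sequence, with the number of shared bases after each gene. Green circles are copies of the same 60 bases, orange squares overlap on the same strand, and the purple triangle overlaps on the opposite strand. Only probes well above background on all 4 arrays are drawn. The copies drawn lie within 0.16 of the named probe, while the overlapping SIRPA probe lies at -0.70 and the opposite-strand FLT3 probe at 0.35.

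Some probes without a symbol differed by more than any named gene. By the rule used, the 2 largest in each direction among those measured above background on each of the 4 arrays are given by identifier with the first 30 bases of each.
A_72_P388518: tcttcatttaccatagagagagtagctgta
A_72_P190151: tatgccagtaactggcctgtttctttccca
A_72_P444998: gagagttatggtccaaagtatcgtcattac
SS_S1C_ENSG158714: aagaagaaagatgcctgtgctgacgaagtg
A_72_P388518 stood at 6.96 and 6.20 on the pDC arrays and at -2.70 and -2.37 on the cDC2 arrays, a fold of 554 (log2 SE 0.48, limma adjusted p = 0.00016) and 216 with normexp. A_72_P190151 was 516-fold higher in pDC (SE 0.49, limma adjusted p = 0.00017), and 227-fold with normexp. Its fold was 317 when cDC2 replicate 1 was left out and 839 when cDC2 replicate 2 was. On the other side, A_72_P444998 stood at -3.11 and -2.13 on the pDC arrays and at 6.08 and 5.94 on the cDC2 arrays, 397-fold lower in pDC (SE 0.52, limma adjusted p = 0.00020), and 163-fold with normexp. SS_S1C_ENSG158714, a custom probe with a shortened human gene identifier, was 255-fold lower in pDC (SE 0.34, limma adjusted p = 0.00014). That fold was 37.6 with normexp and 109 in the deposited log2 values. The cDC1 arrays lay between the subsets for each of them, and for the last they lay with cDC2, at 3.05 and 2.32.

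Custom probes with such an identifier number 260, with 222 distinct identifiers, and 9 of them hold the same 60 bases as a named probe. The study's custom probes include porcine orthologs of genes selective for dendritic cell subsets in human and mouse, and which of the 260 these are is not given. Of the 251 that are no copy of a named probe, 199 were tested and 123 (61.8%) called, 31 higher in pDC and 92 higher in cDC2, with a median difference of -0.96 on the log2 scale. The commercial probes had 32.4% called and a median of 0.08. No table used here turns these identifiers into gene names, so no gene of them is named. The probes were chosen for the array design, so the share is a description.

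For most called probes the cDC1 arrays lay nearer to cDC2 than to pDC. Of the 4154 probes called higher in pDC, 2782 (67.0%) had a cDC1 mean nearer to cDC2, and of the 4463 called higher in cDC2, 2679 did. BATF3 and ID2 are named examples in which cDC1 went past cDC2, with the highest levels on the cDC1 arrays. TCF4, TNF and UNC93B1 also had a cDC1 mean nearer to cDC2. CSF1R, FLT3, CD14 and SIRPA went the other way, with a cDC1 mean nearer to pDC. The cDC1 arrays entered the fit that made the calls, so these shares are a description.

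**Figure D5:**
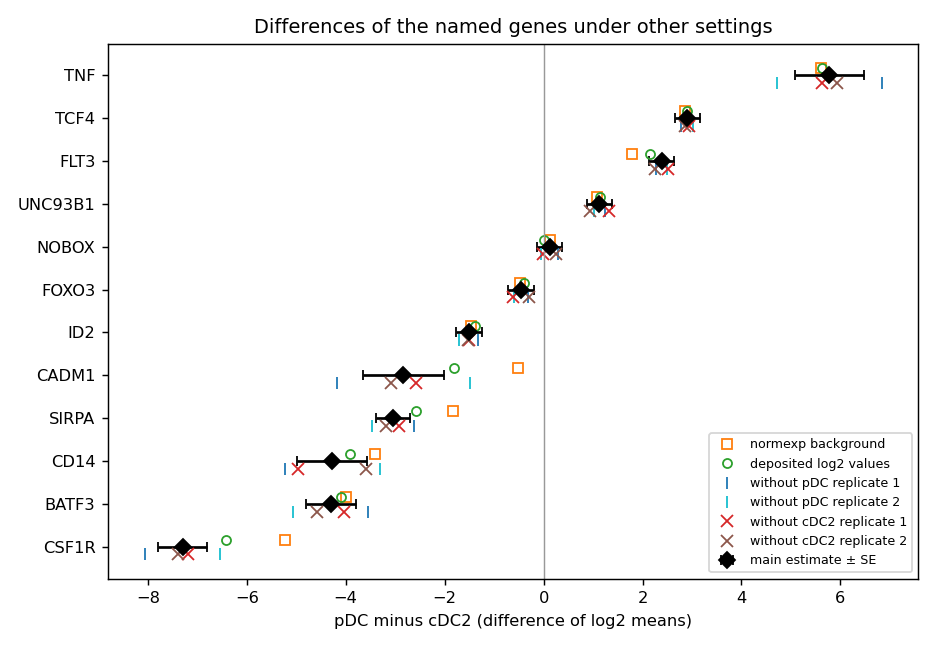
Log2 difference of pDC minus cDC2 for each tested named gene (black diamonds, with the SE of the limma fit), with the value under normexp background, in the deposited log2 values and without each of the 4 arrays. TNF ranges from 4.72 to 6.83 and CSF1R from -8.06 to -5.23, and only NOBOX changes sign.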

How the data were processed

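RNA of sorted subsets (50 ng, RNA integrity number above 8.5) was amplified and labelled with Cy3, and 600 ng of cRNA was hybridized per array, per the labels. The authors deposited, for each array, spot intensities on a linear scale from Agilent Feature Extraction, with flags of other kinds, and a table of normalized log2 values for 11 arrays, made with limma per the submitters' processing notes. Its scaling and the genome build of the probes are not given in the sources used here. Its 5 columns of other samples were not used. The 19 gene spot positions with an outlier flag on at least 1 array were dropped from every array, signals were put on a log2 scale with the 75th percentile of the array at 0 and averaged per probe, and 15530 of 41901 probes were left out because no subset had them well above background on both of its arrays, which a probe was where the scanner software called most of its spots so. limma 3.58.1 in R 4.3.3 fitted all 6 arrays with 1 coefficient per subset, empirical Bayes without a trend and two-sided Benjamini-Hochberg adjusted p (threshold 0.05). With so few arrays, their number limits the precision. Simulated data with the same spread in every subset were used to test the fit, so they do not cover unequal spreads between subsets. Alternatives were quantile normalization, normexp background (offset 50), the deposited log2 values, other filters, a prior with a trend, only the 4 arrays, slide, scan day or replicate number as a block, an added 2-fold threshold, the mean of a gene's probes, and leaving out each array. Named genes are every gene with a symbol in the files, by its brightest probe, and the 2 unnamed probes of largest difference in each direction. Probe sequences were copied from the scanner files, and probes sharing at least 30 bases were compared. Symbols are those of the array design, and 16 of the 27 pig identifiers have the same symbol in the Ensembl table used, while 11 were not listed in it. The members, lists and tests were chosen with earlier results of these data known. Python 3.11.15 with pandas 2.3.3 was used for counts.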

Additional observations from a re-analysis of the deposited data

How the results depend on the processing

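Of the 15 probes of named genes that were tested, 8 kept their direction and their side of the threshold in every alternative, among them TCF4, TNF, FLT3, CSF1R, SIRPA and BATF3. CADM1, CD14, ID2, UNC93B1 and XCR1 lost their call in at least 1 alternative. The number of probes differing was 2856 with the scan day as a block (1286 higher in pDC and 1570 higher in cDC2), and with no filter on dim probes 2756 were higher in pDC. Leaving out 1 array gave between 4235 and 10385 probes, of which between 1951 and 5045 were higher in pDC and between 2284 and 5340 higher in cDC2. The counts without overlap by 2-fold were 1472 higher in pDC and 1894 higher in cDC2 with normexp, and 2171 higher in cDC2 among probes well above background on all 4 arrays. With the replicate number as a block 8489 probes differed. Arrays of the same number deviated together with correlations of 0.089 between pDC and cDC2, of 0.043 between pDC and cDC1 and of 0.27 between cDC2 and cDC1. No label ties a replicate number to an animal. The deposited column names hold a code shared by pDC replicate 2, cDC2 replicate 1 and cDC1 replicate 1, which no source used here explains, so the block may pair arrays of different animals. The difference of NOBOX, never called, was -0.00036 in the deposited log2 values and between -0.044 and 0.29 when 1 array was left out, falling below 0 without pDC replicate 2 and without cDC2 replicate 1 (-0.016). The cause of these changes was not tested. Background signal limits the dim probes: XCR1, IL12A and IL12B have no measured level in either subset, and folds that rest on a dim side, those of the unnamed probes included, were smaller with normexp.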
